A study of Bos taurus with 23 samples.

Results

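The set described here is 54 genes of bovine endometrium, of 18897 genes in the deposited count table, whose mean level was higher in explants cultured with a conceptus than in explants cultured with interferon tau or in medium alone. Levels are given as CPM, the reads of a gene scaled by the total of its library. A gene entered when its Control mean was at least 1 CPM, its IFNT mean was 0.8 to 1.25 times the Control mean, its AI mean was at least 1.4 times and its IVF mean at least 1.2 times both of these means, and each of the 4 AI libraries was above the IFNT and the Control library of the same uterus. The members were thus chosen on the measured differences between these groups. Group means, the AI order and all comparisons of AI, IVF, IFNT and Control over the members are therefore descriptions of the choice, and tests of those contrasts support nothing about the set.

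Explants of intercaruncular endometrium, the gland-bearing lining between the sites where the placenta attaches, were taken from mid-luteal uteri and cultured for 6 h. AI explants (n = 4) were cultured with a Day 15 conceptus that had grown from a transferred in vivo-derived blastocyst, and IVF explants (n = 7) with one from a transferred blastocyst made in vitro. The explants lay with their endometrial side up, each in RPMI medium. IFNT explants (n = 6) received 100 ng per mL of recombinant ovine interferon tau (the sheep protein on cattle tissue), and Control explants (n = 6) received medium alone. No allele, transgene or deletion is named in any group. The AI conceptuses were 1 male and 3 females, 21.0 to 31.0 mm long, and the IVF conceptuses were 5 males and 2 females, 8.0 to 54.0 mm long. A library is called here by its group and the number that its title carries. Libraries that share a number are treated as explants of 1 uterus, on a check of the data given with the methods. AI was set up in uteri 1 to 4, IFNT and Control in uteri 1 to 5 and 10, and IVF in those 6 and in uterus 7, which has no other library.

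The elongating ruminant conceptus secretes interferon tau from its trophectoderm, a type I interferon that acts on the endometrium and keeps the corpus luteum of pregnancy. Conceptus and endometrium also release prostaglandins, cortisol and proteins, so that an explant beside a conceptus meets more than interferon tau alone. The members carry Ensembl identifiers only. The reference table used here paired 0 of the 18897 identifiers with a symbol, so no function is given to any member, and the lists of pathway genes and of cell type markers could not be applied. The labelled tissue was therefore not checked against its markers. In such bulk RNA, more cells of a type and more RNA per cell cannot be told apart. Members are called below by their rank in the ratio of the conceptus level (the mean of the AI and IVF means) to the higher of the IFNT and Control means. The highest-ranked pair is given by identifier, and the other members described singly were chosen after their values were seen.

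The libraries held 27987043 to 31789316 reads in AI, 23505348 to 36730378 in IVF, 24416081 to 31216891 in IFNT and 19461678 to 32152427 in Control. Every library had between 14177 and 14682 genes with at least 10 reads. Of the members, 53 had at least 10 reads in every library, and the lowest count of a member in any library was 4. Pieces of the conceptus could add RNA to an explant. Without marker names, the measurement made in place of a marker check was of genes with at most 1 read in each of the 12 IFNT and Control libraries and at least 20 reads in a conceptus library. There were 2 such genes, both with reads in IVF 3 alone, at 60 and 256. No member could be among them, since the rule asked for a Control mean of at least 1 CPM. The reverse pattern was found for 0 genes. The part of conceptus RNA in the members' levels was not tested. In the deposited table the conceptus libraries also carry column numbers in a range apart from those of IFNT and Control. What the numbers mark is not stated, and anything that followed them cannot be told apart from the presence of a conceptus.

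Among the members the ratio of conceptus to the higher of IFNT and Control ran from 1.31 to 2.76, with a median of 1.50, and reached 2 in 3 members. The AI mean was 1.41 to 4.28 times the Control mean, with a median of 1.69. The AI mean was above the IVF mean in 49 members and below it in 5. The IFNT mean was 0.808 to 1.20 times the Control mean, with a median of 0.927, and was below the Control mean in 37 members and above it in 17. Control means of the members ran from 1.33 to 2090 CPM. Their median of 9.39 CPM was below the median of 21.3 CPM over all 13451 genes with a Control mean of at least 1 CPM. A Control mean under 5 CPM was found for 19 members, one from 5 to under 100 CPM for 28 and one of at least 100 CPM for 7. CPM are not corrected for gene length, so these values rank reads and not transcripts.

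The thresholds fall within a continuous spread of genes. Measured as the AI mean over the higher of IFNT and Control, the 3 members nearest the limit stood at 1.4114, 1.4147 and 1.4199, and the nearest genes outside that met every other part of the rule stood at 1.3941, 1.3893 and 1.3876. For the IVF limit the nearest members stood at 1.2061, 1.2098 and 1.2109, and the nearest genes outside at 1.1988, 1.1946 and 1.19. In all, 47 genes missed the AI limit alone and 138 missed the IVF limit alone. A further 14 genes met every limit on the means and failed on the order of the AI libraries. Scaling library totals by the trimmed mean of M-values (TMM) took 120 genes into the set, 51 of them among the 54. The TMM factors differed from those of Control by -0.09 in AI, -0.11 in IVF and -0.06 in IFNT on the log2 scale, so TMM-scaled levels stand higher against Control by these amounts. Leaving out IVF 2 gave 35 genes, leaving out Control 5 or Control 10 gave 101 or 105, and leaving out all libraries of uterus 5 or of uterus 10 gave 112 or 98.

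**Figure D1:**
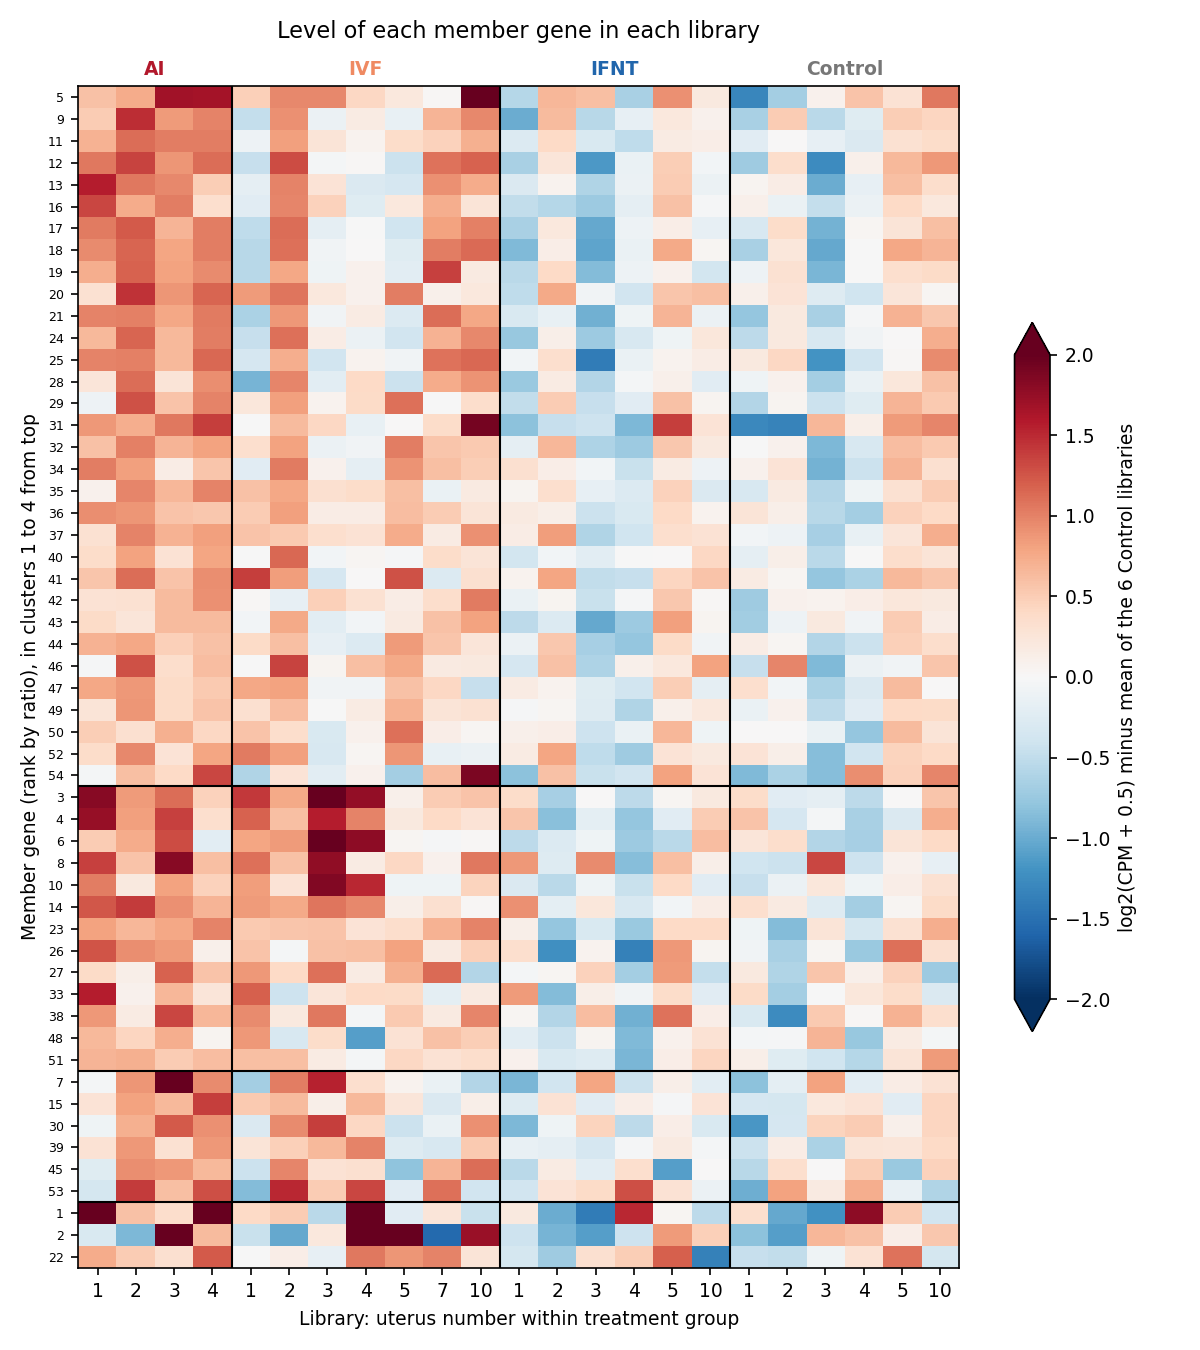
Level of the 54 member genes (one line each, named by rank) in the 23 libraries (columns, by group and uterus number), as log2(CPM + 0.5) minus the mean of the 6 Control libraries, with black lines between groups and between the 4 clusters of genes. The AI columns are high nearly throughout, as the rule required, while the upper block of 32 genes is high in IVF 2, IVF 7 and IVF 10 and near the Control mean in IVF 1, IVF 3 and IVF 4.

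Summed over the 54 members, the level was 7736 ± 644 CPM in AI (SD, n = 4), 6881 ± 1488 CPM in IVF (n = 7), 4253 ± 349 CPM in IFNT (n = 6) and 4785 ± 867 CPM in Control (n = 6). The member at rank 45 alone made up 43.7% of the summed Control level. Weighting members equally, the median log2 difference from the Control mean was 0.76 ± 0.10 in AI, 0.36 ± 0.22 in IVF, -0.08 ± 0.29 in IFNT and 0.01 ± 0.31 in Control (SD over libraries). The AI libraries lay between 0.65 and 0.87 and the IVF libraries between 0.16 and 0.78. IFNT 5, Control 5 and Control 10, at 0.38, 0.32 and 0.40, were as high as several IVF libraries, so the groups overlapped.

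No member was higher in all 11 conceptus libraries than in all 12 IFNT and Control libraries, and over the 13451 genes with a Control mean of at least 1 CPM the share was also 0%. All 4 AI libraries were above all 12 IFNT and Control libraries in 7 members, those at ranks 11, 12, 17, 18, 19, 21 and 36. The share over the 13451 genes was 0.186%, and the rule had used this contrast, so nothing is read from the difference.

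ENSBTAG00000004354, at rank 1, had 24.4, 7.86, 6.61 and 76.4 CPM in AI 1 to AI 4. Its lowest, median and highest levels were 3.34, 6.04 and 27.2 CPM in IVF, 1.60, 4.27 and 15.2 CPM in IFNT and 1.90, 5.11 and 18.7 CPM in Control. The groups overlapped, and the library of uterus 4 was the highest of each of the 4 groups. The averaged conceptus log2 fold change was 1.32 ± 0.64 (SE) against Control, with an adjusted p of 0.358 from edgeR's quasi-likelihood test, and 1.49 ± 0.65 against IFNT, with an adjusted p of 0.437. With the uterus as a block the estimates were 1.19 ± 0.22 and 1.36 ± 0.22 and the adjusted p from edgeR were 0.00153 and 0.00497. The high rank of this gene thus rests largely on AI 4 and AI 1 in the means.

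ENSBTAG00000015366, at rank 2, had 4.18, 2.58, 39.1 and 8.40 CPM in AI 1 to AI 4. Its lowest, median and highest levels were 1.47, 6.15 and 55.1 CPM in IVF, 2.18, 3.82 and 9.95 CPM in IFNT and 2.19, 6.85 and 8.62 CPM in Control. The groups overlapped, and AI 3, IVF 4, IVF 5 and IVF 10 alone stood above every IFNT and Control library. The averaged conceptus log2 fold change was 1.44 ± 0.70 against Control (edgeR adjusted p = 0.359) and 1.66 ± 0.71 against IFNT (0.428), and with the uterus block the adjusted p were 0.0849 and 0.12, so neither fit called it.

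The member at rank 3 had 476, 242, 292 and 186 CPM in AI 1 to AI 4. Its lowest, median and highest levels were 144, 227 and 625 CPM in IVF, 85.0, 136 and 174 CPM in IFNT and 93.5, 126 and 197 CPM in Control. It was above the IFNT and the Control explant of its own uterus in all 10 conceptus libraries that have such partners, although AI 4 was below Control 10. Its log2 fold change was 1.28 ± 0.30 against Control (edgeR adjusted p = 0.0115) and 1.30 ± 0.30 against IFNT (0.176, and 0.0126 with the uterus block).

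Rank 11 was the member with the smallest adjusted p against Control. It had 12.9, 17.4, 16.4 and 16.4 CPM in AI 1 to AI 4, and lowest, median and highest levels of 7.21, 10.2 and 14.1 CPM in IVF, 5.28, 7.46 and 10.4 CPM in IFNT and 6.25, 7.34 and 10.1 CPM in Control. AI stood clear of both groups without a conceptus, while IVF overlapped with them. Its log2 fold change was 0.82 ± 0.16 against Control (edgeR adjusted p = 0.00146) and 0.82 ± 0.16 against IFNT (0.163, and 0.00318 with the uterus block). At rank 36, AI 1 to AI 4 had 89.2, 86.5, 69.3 and 67.8 CPM. That member's lowest, median and highest levels were 51.4, 66.2 and 82.8 CPM in IVF, 34.3, 49.6 and 61.5 CPM in IFNT and 28.9, 53.1 and 64.3 CPM in Control. It shows the same order of groups at a smaller fold, with 0.66 ± 0.15 against Control (edgeR adjusted p = 0.00822) and 0.63 ± 0.15 against IFNT (0.197, and 0.0048 with the block).

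Ranks 4 and 10 had over 200 CPM in every library. At rank 4 the 4 AI libraries had 1641, 864, 1263 and 615 CPM, and the lowest, median and highest levels were 562, 747 and 1459 CPM in IVF, 273, 425 and 720 CPM in IFNT and 312, 440 and 814 CPM in Control. AI 4, at 615 CPM, was inside the range of IFNT and Control. At rank 10 the 4 AI libraries had 1132, 637, 973 and 767 CPM, and the lowest, median and highest levels were 524, 763 and 2021 CPM in IVF, 385, 467 and 739 CPM in IFNT and 403, 569 and 690 CPM in Control. IVF 3 and IVF 4 were its highest libraries, and this is 1 of the 5 members whose IVF mean was above the AI mean.

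Rank 45 took the most reads of any member. It had 1670, 3768, 3598 and 3115 CPM in AI 1 to AI 4, and lowest, median and highest levels of 1133, 2475 and 4312 CPM in IVF, 919, 1849 and 2498 CPM in IFNT and 1187, 2251 and 2781 CPM in Control. AI 1 was below the Control median, and the libraries of uteri 1 and 5 were low in each group they belong to. Its log2 fold change was 0.57 ± 0.30 against Control (edgeR adjusted p = 0.406, and 0.0308 with the block) and 0.73 ± 0.30 against IFNT (0.404, and 0.0163 with the block).

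**Figure D2:**
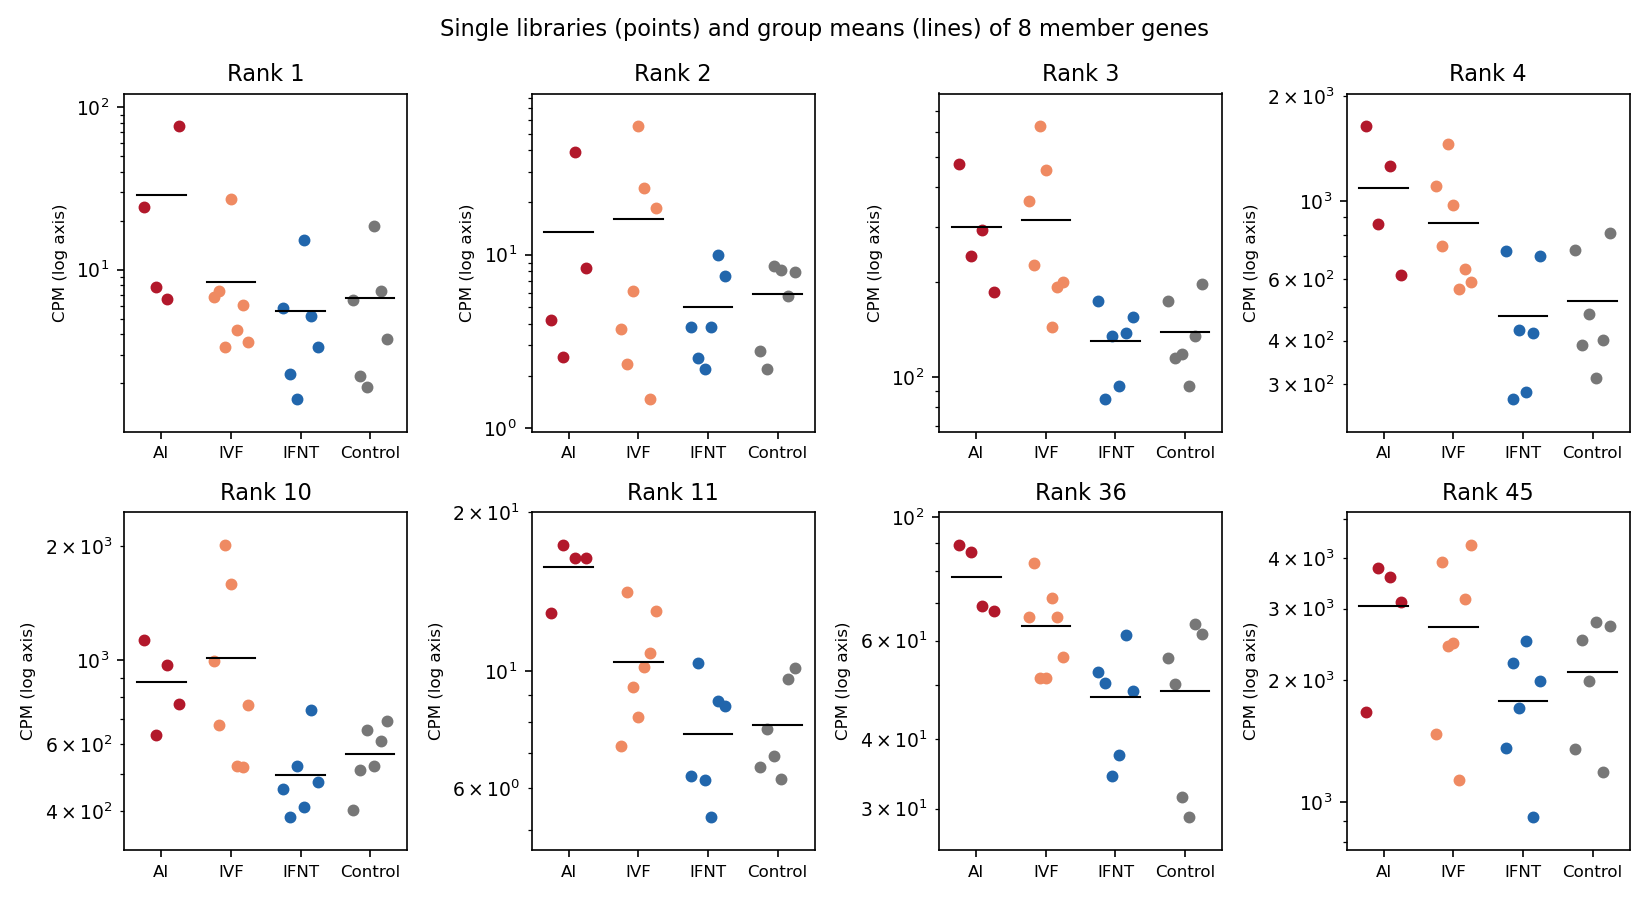
CPM on a log axis for 8 members, with 1 point per library and a line at each group mean, AI and IVF at the left and IFNT and Control at the right. At ranks 11 and 36 all AI points lie above the IFNT and Control points, while at ranks 1 and 2 a few libraries lie far above the rest of their group (76.4 CPM in AI 4 at rank 1, 39.1 CPM in AI 3 and 55.1 CPM in IVF 4 at rank 2).

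Across all genes tested, edgeR called 9 members higher with a conceptus than in Control at an adjusted p under 0.05, where 3.40% of the 15227 genes were called higher, and the median log2 fold change of the members was 0.73. Against IFNT the fit without a block called 0 members and 0% of genes, at a median log2 fold change of 0.74, while 44 members and 1524 genes had an unadjusted p under 0.05 and DESeq2 called 12 members. Adding the uterus block, edgeR called 47 members higher than Control (8.20% of genes) and 41 higher than IFNT (4.30% of genes), and 39 members were called against both. The rule had used these contrasts, and nothing is read from the members' shares. The counts moved with single libraries. Without the block the count against Control was 5 without AI 2, 5 without Control 4 and 14 without Control 10. With it, the count against Control was 31 without Control 3, and the count against IFNT was 26 and 27 when AI 3 or AI 4 was left out and 16, 18 and 24 when IFNT 3, IFNT 4 or IFNT 10 was.

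Taken by origin of the conceptus, the members' median log2 fold change was 0.86 for AI and 0.52 for IVF against Control, and 0.89 for AI and 0.58 for IVF against IFNT. The fold limits of the rule were higher for AI than for IVF. Against Control, edgeR called 9 members in AI (2.75% of genes called higher) and 1 in IVF (2.92%), the member at rank 3, at a log2 fold change of 1.34 ± 0.32 (adjusted p = 0.0148). With the uterus block it called 46 in AI (7.45%) and 19 in IVF (5.21%), with 18 members called in both. Against IFNT it called 0 members in AI and 0 in IVF (0% of genes in each). The unadjusted p was under 0.05 for 41 members and 1495 genes in AI and for 26 members and 866 genes in IVF, and DESeq2 called 4 members in AI and 1 in IVF. With the block the counts against IFNT were 43 in AI (4.91%) and 0 in IVF (0.0131%), with 43 members of IVF and 2107 genes at an unadjusted p under 0.05. Leaving out AI 2 took the count of AI against Control to 2, leaving out AI 3 or Control 1 to 4, and leaving out Control 10 to 14. For IVF against Control the count was 0 without IVF 3, 2 without IVF 1, IVF 2, IVF 7 or IFNT 1, 4 without IVF 5 and 6 without Control 10. For AI against IFNT it was 1 without IVF 2 or Control 10. With the block, AI against IFNT gave 21 to 28 members when any 1 of the AI libraries was left out and 25 without IFNT 3 or IFNT 4, and IVF against Control gave 9 to 11 without IVF 1, IVF 3, Control 1, Control 2 or Control 3. The blocked count of IVF against IFNT was 19 without IVF 5, 7 without IVF 10, 2 without IFNT 2 and 1 without IFNT 1.

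The direct comparison of the conceptus groups gave a median log2 difference of 0.28, AI minus IVF, with values from -0.41 to 1.75. Here edgeR called 0 members and 0% of genes without the block and 0 and 0% with it, while 4 members and 343 genes without it, and 23 members and 1254 genes with it, had an unadjusted p under 0.05. DESeq2 called 0 members, and leaving out IVF 2 gave 3 with the block. The rule set different limits for AI and IVF, so nothing on conceptus origin is read from this contrast.

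A reading that the choice did not use was made by applying the whole rule without 1 uterus and then reading the genes it chose in that uterus. The sets chosen in this way held 67, 48, 45, 51, 112 and 98 genes for uteri 1, 2, 3, 4, 5 and 10. In the uterus left out, AI was higher than Control in 92.5%, 93.8%, 82.2% and 90.2% of the chosen genes for uteri 1 to 4, where AI was higher in 38.5%, 44.0%, 45.2% and 47.5% of all genes. AI was higher than IFNT in 89.6%, 75.0%, 95.6% and 100% of them, where the shares over all genes were 51.9%, 48.4%, 47.0% and 60.0%. The mean over uteri of the median log2 difference was 0.83 ± 0.08 for AI minus Control and 0.75 ± 0.30 for AI minus IFNT (SD, n = 4 uteri, above 0 in 4 of 4).

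For IVF the same reading split by uterus. IVF was higher than Control in 76.1%, 89.6%, 71.1% and 72.5% of the chosen genes in uteri 1 to 4, but in 33.0% in uterus 5 and 29.6% in uterus 10. Against IFNT the shares were 80.6%, 72.9%, 91.1% and 84.3% in uteri 1 to 4, 35.7% (40 of 112 genes) in uterus 5 and 48.0% (47 of 98) in uterus 10. Over all genes IVF was higher than Control in 37.0% to 41.3% in uteri 1 to 4, 42.0% in uterus 5 and 33.1% in uterus 10. It was higher than IFNT in 51.8%, 47.2%, 41.0% and 54.3% of all genes in uteri 1 to 4, 46.5% in uterus 5 and 34.8% in uterus 10. The mean of the medians was 0.19 ± 0.38 for IVF minus Control and 0.23 ± 0.30 for IVF minus IFNT on the log2 scale (SD, n = 6 uteri, above 0 in 4 of 6 in each). Both means were smaller than the spread between uteri, and that of IVF minus Control was 0.30 without uterus 10 and 0.11 without uterus 2. The reading in uterus 10 moved with the scaling. With genes chosen and read on TMM-scaled totals, its median of IVF minus IFNT was 0.13, where it was -0.02 on CPM from column totals. IVF minus IFNT was then above 0 in 5 of 6 uteri, while IVF minus Control stayed above 0 in 4 of 6, at -0.07 in uterus 10. IFNT was higher than Control in 44.8%, 68.8%, 44.4%, 31.4%, 33.9% and 9.18% of the chosen genes in uteri 1, 2, 3, 4, 5 and 10, and in 27.6%, 49.2%, 46.0%, 33.2%, 41.6% and 43.3% of all genes. The chosen genes thus stood above all genes in uteri 1 and 2 and below them in the other 4. Genes chosen without a uterus overlap between uteri, as do the libraries that chose them, so these readings are not independent of one another. Titles of conceptus libraries also carry a further code of unstated meaning. AI 1 to AI 4 share 1 code, IVF 1 and IVF 2 share 1, and IVF 3 and IVF 4 share a different one. Leaving out a uterus from 1 to 4 thus kept libraries with its codes in the choice. IVF 5 and IVF 10 share their codes with no other library, and the part of the codes in the split was not tested.

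**Figure D3:**
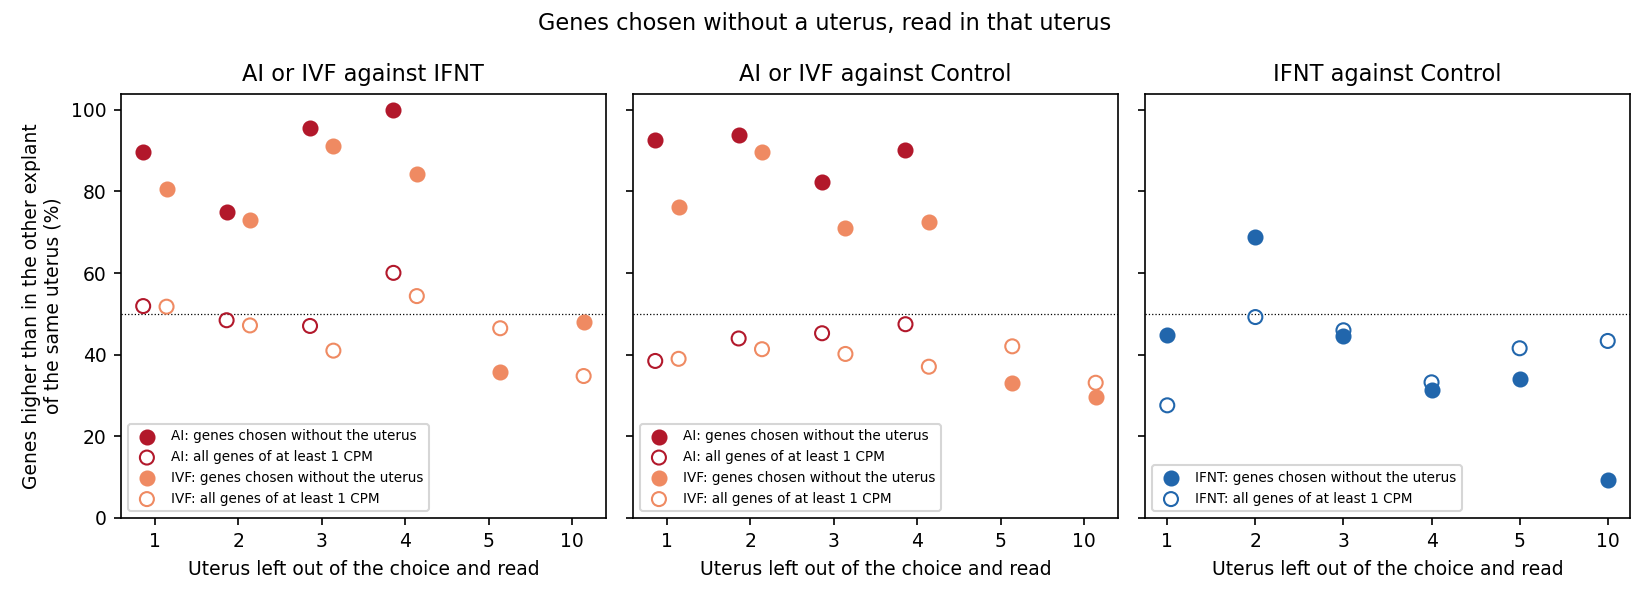
Percent of genes higher in AI or IVF than in IFNT (left), higher in AI or IVF than in Control (middle) and higher in IFNT than in Control (right), read in the uterus that was left out when the genes were chosen. Filled points are the chosen genes and open points all genes of at least 1 CPM, and the filled IVF points lie above 70% in uteri 1 to 4 and below 50% in uteri 5 and 10.

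Within the 54 members themselves the IVF explants were compared with both other explants of their uterus. For uteri 1, 2, 3, 4, 5 and 10, IVF was above both in 43, 49, 47, 42, 22 and 31 members. Members at ranks 3, 11 and 33 were above both in all 6 uteri, 21 members in 5 uteri, 21 in 4 and 9 in 3 or fewer. In uterus 5 the median log2 difference of IVF was -0.07 against Control and -0.05 against IFNT. In uterus 10 it was 0.17 against Control and 0.50 against IFNT. The rule used the IVF mean, so these counts are descriptions. It also asked that the IFNT and Control libraries of uteri 1 to 4 lie below AI, and IVF is read here against those same libraries. No such order was asked in uteri 5 and 10, so the split by uterus is not free of the choice.

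Members did not move as 1 group within treatments. After each group mean was removed from log2(CPM + 0.5), the median correlation between pairs of members over the 23 libraries was 0.17. Average-linkage clustering of these values into 4 clusters, a split made after the values were seen and given no test, put 32 members in cluster 1, 13 in cluster 2, 6 in cluster 3 and 3 in cluster 4. The median correlation was 0.49 within cluster 1, 0.40 within cluster 2 and -0.08 between them. All libraries share their uteri and depth with others, which enters these correlations.

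Cluster 1 was higher in AI than in IVF in all 32 of its members, with a median of 1.68 times the Control mean in AI, 1.29 times in IVF and 0.943 times in IFNT. Its median log2 difference from the Control mean was 0.59 to 0.99 in the 4 AI libraries. Among IVF libraries it was 0.82 in IVF 2, 0.53 in IVF 7 and 0.62 in IVF 10, against -0.01 in IVF 1, -0.04 in IVF 3, 0.07 in IVF 4 and 0.22 in IVF 5. The IVF libraries thus ranged for this cluster from the Control mean up to the AI range. The conceptuses of the 3 higher libraries were a female of 8.0 mm and males of 54.0 mm and 29.0 mm. All 7 members in which AI stood clear of IFNT and Control belong to this cluster. Rank 17 shows its pattern, with 54.0, 61.6, 42.1 and 53.1 CPM in AI 1 to AI 4. In IVF it had 56.6, 45.5 and 52.4 CPM in IVF 2, IVF 7 and IVF 10 and 18.0 to 25.9 CPM in the other 4 libraries, while IFNT had 12.5 to 30.1 CPM and Control 13.2 to 39.6 CPM.

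Cluster 2, with the members at ranks 3, 4 and 10, was 1.66 times the Control mean in AI, 1.53 times in IVF and 0.906 times in IFNT, as medians over its 13 members. Here the order of IVF libraries was another. IVF 3 and IVF 1 were highest, at median log2 differences of 1.07 and 0.86, and AI 1 and AI 3 stood at 1.02 and 0.92. IVF 7, at 0.29, was lowest among the conceptus libraries. Cluster 3 held 6 members, with the member at rank 45 among them, and was 1.64 times the Control mean in AI, 1.30 times in IVF and 0.900 times in IFNT. Cluster 4 held ranks 1, 2 and 22.

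**Figure D4:**
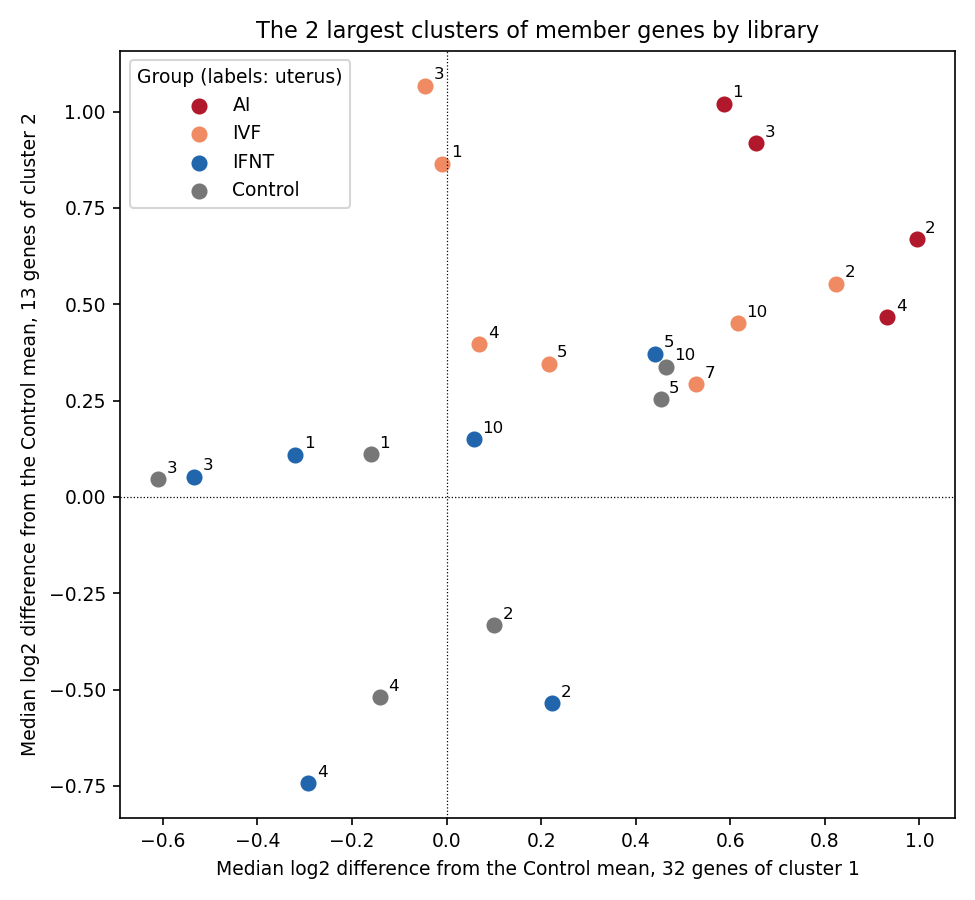
Median log2 difference from the Control mean for the 32 members of cluster 1 (horizontal) and the 13 of cluster 2 (vertical), 1 point per library with its uterus number. AI lies high on both axes, IVF 3 and IVF 1 (1.07 and 0.86 for cluster 2) lie near 0 for cluster 1, and IFNT 5, Control 5 and Control 10 lie among IVF libraries.

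Differences between uteri were tested in the 12 IFNT and Control libraries, which hold no conceptus. edgeR called a difference between the 6 uteri in 31 of the 54 members, 57.4%, where 31.2% of 14491 genes were called. The count was 19 without uterus 1 (15.9% of genes), 18 without uterus 3 (25.7%) and 13 without uterus 5 (13.3%). The rule had used the means of these libraries and their order against AI within uteri 1 to 4, so the members' share is not independent of how they were chosen. ENSBTAG00000004354 was among the genes called (edgeR adjusted p = 0.000337), and its uterus 4 explants had 15.2 CPM in IFNT and 18.7 CPM in Control. The level in IFNT and that in Control correlated across the 6 uteri in a positive direction in 54 of 54 members, with a median r of 0.78. Over all genes it was positive in 11996 of 13451, with a median r of 0.65. The paired explants share a uterus, and no test was made of this correlation.

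Uterus 5 had the highest mean of its IFNT and Control explants for 23 members and uterus 10 for 16, while uterus 3 had the lowest for 22. Over the 54 members the median log2 difference from the mean of the 6 uteri was -0.19, 0.06, -0.32, -0.21, 0.37 and 0.29 in uteri 1, 2, 3, 4, 5 and 10. Over all genes uterus 5 was also the highest, at 0.11, and uterus 3 the lowest, at -0.09, while uterus 10 was at 0.01. The range over uteri had a median of 1.27 on the log2 scale over the members and 0.81 over all genes. In uteri 5 and 10 IVF was not higher in most genes chosen without them, on CPM from column totals. In uterus 10 the share against IFNT, 48.0%, was above the 34.8% over all genes, and that against Control, 29.6%, was below 33.1%. Of the 54 members, IVF was higher than Control in 25 and than IFNT in 25 in uterus 5, and in 34 and 40 in uterus 10. Uteri 5 and 10 were also those in which the members stood highest without a conceptus. AI had no explant in either, so the rule set no order for their IFNT and Control libraries. The IFNT and Control libraries of uteri 1 to 4 had to lie below AI, so the members' profile over uteri is not independent of the choice. Within groups the coefficient of variation of the members had a median of 26.4% in AI, 43.1% in IVF, 37.0% in IFNT and 37.3% in Control, beside 19.6%, 25.1%, 26.9% and 24.0% over all genes. The members had a lower median Control level than all genes (9.39 against 21.3 CPM), and the rule had used these libraries. Their wider range and spread are therefore not read as a trait of the members.

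**Figure D5:**
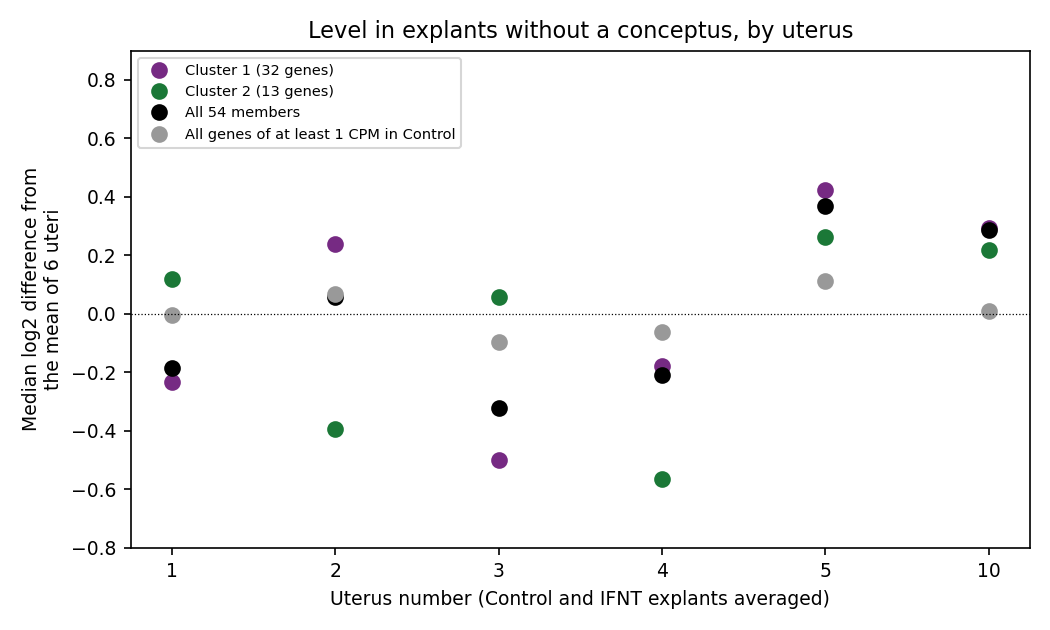
Median log2 difference of the IFNT and Control explants of each uterus from the mean of the 6 uteri, for the 32 members of cluster 1, the 13 of cluster 2, all 54 members and all genes of at least 1 CPM. Members stand at 0.37 in uterus 5 and 0.29 in uterus 10 and at -0.32 in uterus 3.

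Conceptus length and sex were not used by the rule. For length, a slope per doubling was fitted over the 11 conceptus libraries, with AI and IVF as separate groups. The slope was above 0 in 23 members and below 0 in 31, with a median of -0.04 on the log2 scale and values from -0.55 to 0.36. edgeR called 0 members and 0% of genes, with 2 members and 461 genes at an unadjusted p under 0.05, and DESeq2 called 0 members and 0 genes. With the uterus block the slope was above 0 in 12 members and below 0 in 42, with a median of -0.23, and edgeR called 0 members, with 5 members and 225 genes at an unadjusted p under 0.05. That fit has 2 residual degrees of freedom, so little can be read from its signs. For Male minus Female the log2 difference was above 0 in 20 members and below 0 in 34, with a median of -0.06 and values from -1.27 to 0.94. edgeR called 0 members and 0% of genes, with 0 members and 508 genes at an unadjusted p under 0.05, and DESeq2 called 0 members and 1 gene. With the uterus block, also at 2 residual degrees of freedom, the difference was above 0 in 26 members and below 0 in 28, and edgeR called 0 members, with 2 members and 494 genes at an unadjusted p under 0.05. The median SE of a member was 0.22 for the slope and 0.35 for the sex difference, which limits the differences that could be detected. Only 1 of the 4 AI conceptuses was male.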

How the data were processed

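RNA was sequenced from 23 explants with a stranded TruSeq mRNA kit, per the labels' protocols. The authors deposited read counts per gene, whole numbers that are not normalized, under Ensembl identifiers. HISAT2, StringTie, edgeR and UMD3.1 are named in the submitters' processing notes, and their roles, versions and settings are not given in the sources used. Without the counting rules, overlapping genes or near-identical copies may share reads.

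CPM were computed from column totals to choose the members. The members, lists and clusters were chosen with earlier results of these data known. As no symbols could be matched, the members named were the 2 with the highest ratio.

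Counts of all genes were tested in R 4.3.3 with edgeR 4.0.16 (filterByExpr, TMM, 4 groups in 1 quasi-likelihood fit, Benjamini-Hochberg adjustment over all genes tested). DESeq2 1.42.0 was an alternative, and other steps used Python 3.11.15. The fit was tested on simulated data. Libraries with the same title number deviated together from their group means, at a median r of 0.56 over 30 pairs (0.17 to 0.78). Over 166 pairs with different numbers the median was -0.11 (-0.57 to 0.57), so the ranges overlap. On these medians the numbers are taken to pair the libraries. They are called uteri, although the labels do not spell this out, and enter as an additive block in the second fit. The spread of a gene, as edgeR's common biological coefficient of variation, fell to 23.9% with the block, against 36.6% without it. The 4 AI titles carry 1 further code and the 7 IVF titles 5, of which 2 are on 2 libraries each, with no meaning given. Nothing says that explants came from separate animals beyond the uterus numbers, so p-values measure the spread between these explants. In the fits with the block and in the test of uteri, this is the spread left after differences between uteri are taken out. No pair of libraries agreed within sampling noise.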

Additional observations from a re-analysis of the deposited data

Results flagged for a closer look

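In groups of 4 to 10 libraries, the highest and lowest values were compared with the gap to their nearest neighbour. Of 40 group values checked, over 8 members, the summed level and the median level, 7 had a library apart. Chance gives about 1 in 20 for independent, normally distributed values not picked for their spread. CPM need not be normally distributed, the groups share uteri, and the 8 members were chosen after their values were seen. The 7 are therefore not read against that rate. For ENSBTAG00000004354, at rank 1, the uterus 4 library stood apart in 3 groups, at 27.2 CPM in IVF, 15.2 CPM in IFNT and 18.7 CPM in Control. For ENSBTAG00000015366, at rank 2, the library apart was AI 3 at 39.1 CPM and IVF 4 at 55.1 CPM.

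The summed level of the members stood apart in uterus 10, at 4915 CPM in IFNT 10 and 6418 CPM in Control 10. Outside the members, 2 genes with at most 1 read in each of the 12 IFNT and Control libraries had 60 and 256 reads in IVF 3 and 0 in every other conceptus library.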

How the results depend on the processing

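The number of genes that met the rule was 120 with TMM-scaled totals, 120 with median-ratio-scaled totals (53 of the 54 among them) and 35 with a minimum of 5 CPM in Control. It was 35 to 105 with 1 library left out and 45 to 112 with 1 uterus left out. With the replicate block (the uterus pairing), edgeR called 47 members for conceptus against Control, 41 for conceptus against IFNT, 46 for AI against Control, 19 for IVF against Control and 43 for AI against IFNT. DESeq2, run without the block, called 17, 12, 15, 5 and 4 members in these comparisons and 1 for IVF against IFNT. Without the block edgeR called 9, 0, 9, 1 and 0 in them and 0 for IVF against IFNT. With 1 library left out, without and with the block, the counts were 5 to 14 and 31 to 50 for conceptus against Control, 0 to 0 and 16 to 44 for conceptus against IFNT, 2 to 14 and 31 to 50 for AI against Control, 0 to 6 and 9 to 27 for IVF against Control, 0 to 1 and 21 to 47 for AI against IFNT, 0 to 0 and 0 to 19 for IVF against IFNT, and 0 to 0 and 0 to 3 for AI against IVF. For length and for sex the count was 0 under each alternative run, and the block changed no other call. The uterus count was 13 to 30 with 1 uterus left out. The mean over uteri of the median of AI minus Control, read in the uterus left out, was 0.74 on the log2 scale with TMM. It was 0.92 with a minimum of 5 CPM. For IVF minus IFNT the mean was 0.24 with TMM and 0.24 with median-ratio-scaled totals. The medians were above 0 in 5 of 6 uteri with either scaling, against 4 of 6 without it. Chosen after seeing the data were the blocked fits with a library left out, the sets without a uterus and the readings in it. With 1 uterus omitted the means of these readings were 0.79 to 0.85 for AI minus Control, 0.65 to 0.88 for AI minus IFNT, 0.11 to 0.30 for IVF minus Control and 0.17 to 0.32 for IVF minus IFNT. The cause of these changes was not tested.

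Limits are the 4 AI libraries, the want of gene names and the counting error of the 19 members under 5 CPM.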
